A study of Mus musculus with 4 samples.

Results

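The 9 genes described here are members of the mouse major histocompatibility complex class I family from outside its classical pair, H2-K1 and H2-D1: H2-Q4, H2-Q5, H2-Q6, H2-Q7, H2-K2, H2-T22, H2-T23, H2-T24 and H2-M3. They were chosen by symbol from the 53139 loci of the authors' gene table, of which Cuffdiff had tested 12648, and all 9 were found and tested. RNA was sequenced from macrophages derived from MCA fibrosarcoma (9609) tumours, labelled WT and 9609 parent, after treatment in culture with exosomes, small vesicles released by cells. The groups were MEK1-hi exosomes (2 samples) and MEK1-low exosomes, which the labels also mark as GFP (2 samples). Effects of MEK1 content and of whatever the GFP mark stands for therefore cannot be told apart, and macrophages without exosomes are not among the samples. Mouse strain, dose and time of treatment are not given in the sources used here. The table holds 1 FPKM value per group (fragments per kilobase of transcript, adjusted for library size, so a level per length), so no SD between samples is printed, depth per sample is unknown, and every p and q is the authors' own. The labels do not say whether samples of a group were separate cultures. The 9 genes were chosen with this contrast in view, so its values are given as a description.

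Class I molecules pair a heavy chain with beta-2 microglobulin and mostly display peptides at the cell surface. The classical ones show peptides of the cell's own proteins to CD8 T cells and are highly variable between mice. The non-classical genes of the Q, T and M series lie in the same stretch of the genome, vary less and often have narrower tasks. Among them, H2-T23 encodes Qa-1, which is read by the CD94/NKG2 receptors of natural killer cells, and H2-M3 presents peptides that start with formylated methionine, as bacteria and mitochondria make them. H2-Q7 and neighbouring Q genes encode Qa-2, which is often anchored to the membrane by a lipid, and H2-Q4 encodes the Qb-1 antigen. H2-T22 is bound directly by some gamma-delta T cells. H2-K2 is annotated as a transcribed unprocessed pseudogene next to the classical H2-K1, and H2-Q5 as a polymorphic pseudogene.

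All 9 genes lie on chromosome 17 (mm10). H2-K2 spans 33974659 to 33978827 on the minus strand, near the centromeric end of the complex. The Q genes follow each other on the plus strand within 64.2 kb: H2-Q4 from 35379617 to 35385290, H2-Q5 from 35394126 to 35397800, H2-Q6 from 35424850 to 35430055 and H2-Q7 from 35439155 to 35443773. The T genes sit on the minus strand, H2-T24 from 36005695 to 36020560, H2-T23 from 36029773 to 36032855 and H2-T22 from 36037128 to 36042747. H2-M3 lies last, from 37270220 to 37274484 on the plus strand.

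Several of these genes are near copies of each other, which bears on how 100-base reads can be assigned. Coding sequences matched at 96.1% of aligned positions between H2-Q5 and H2-Q7 and at 93.2% between H2-Q6 and H2-Q7. H2-Q4 matched H2-Q6 at 84.0%, while H2-T22 matched its neighbour H2-T10, which is not among the 9, at 96.5%. Within the 9, H2-M3, H2-T22 and H2-T24 stood further off, at no more than 73.6%, 68.1% and 64.1% to any other. Shown is the stretch of 60 coding positions, aligned without gaps, at which H2-Q6 and H2-Q7 differed most, with the 8 differing bases in capitals. It is an example of letters by which a read can be placed. H2-Q6 and H2-Q7 also differed elsewhere, matching at 935 of 1003 aligned positions. The stretch covers positions 889 to 948 of the H2-Q6 and 898 to 957 of the H2-Q7 coding sequence in GENCODE M21, counted from the first coding base.
H2-Q6: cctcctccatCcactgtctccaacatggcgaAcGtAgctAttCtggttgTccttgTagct
H2-Q7: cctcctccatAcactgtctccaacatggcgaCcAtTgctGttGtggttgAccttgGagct

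The share of a gene's transcript that can be confused with another gene was counted over all its distinct 100-base windows. Identical windows in a transcript of another gene made up 17.2% for H2-Q7, 15.3% for H2-Q5, 10.8% for H2-Q6 and 2.66% for H2-Q4. In the T series they made up 11.8% for H2-T22, 7.28% for H2-T23 and 0% for H2-T24. With at most 2 mismatches allowed, the shares rose to 71.2% for H2-T22, 46.9% for H2-Q5, 41.9% for H2-Q6, 34.5% for H2-Q7, 32.9% for H2-T23 and 26.9% for H2-Q4. H2-K2 had 10.11%, H2-T24 0.230% and H2-M3 0%. By this last measure H2-T22 was the least separable from other genes, the Q genes and H2-T23 lay in between, and H2-M3, H2-T24 and H2-K2 were the most separable. These shares and letters are those of the reference genome. The H2 genes differ between mouse strains, and with the strain not given, reads of the Q and T genes could be assigned differently from what these shares and letters show, so their FPKM values as single genes carry that limit.

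**Figure D1:**
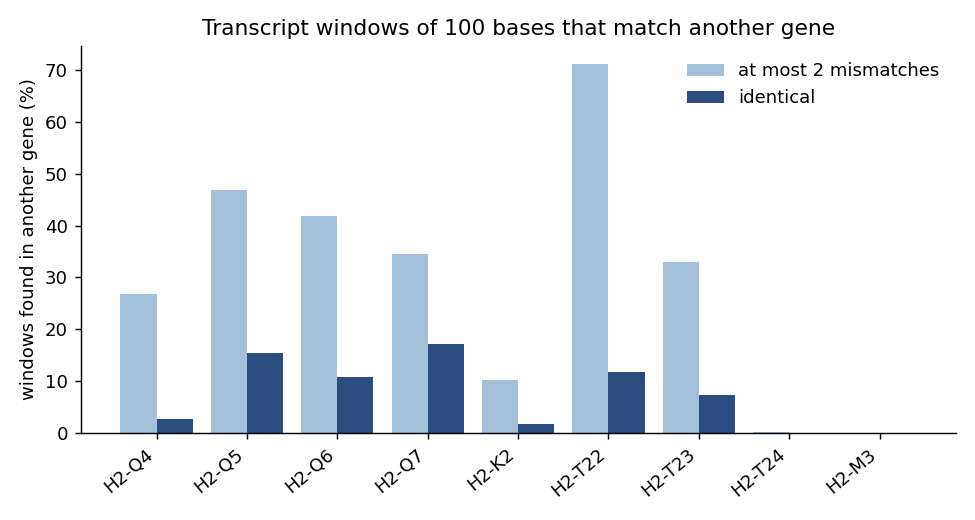
Share of the distinct 100-base windows in each gene's annotated transcripts (retained-intron forms left out) that also occur in a transcript of another gene, in percent; dark bars count identical windows and light bars those with at most 2 mismatches. H2-T22 has the highest light bar at 71.2%, and H2-M3 has 0% in both.

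The most abundant of the 9 genes was H2-T23, the Qa-1 gene. It stood at 193 FPKM after MEK1-low and at 141 FPKM after MEK1-hi exosomes. It ranked 473rd among the tested loci in the MEK1-low group and 619th in the MEK1-hi group. With MEK1-low exosomes the order continued with H2-Q7 (100.0 FPKM), H2-Q4 (81.2 FPKM), H2-Q6 (50.9 FPKM), H2-T22 (50.8 FPKM), H2-M3 (40.4 FPKM), H2-T24 (20.9 FPKM), H2-Q5 (17.3 FPKM) and H2-K2 (5.22 FPKM). In the MEK1-hi group H2-Q4 (45.1 FPKM) stood above H2-Q7 (40.2 FPKM), and H2-T22 (39.0 FPKM) and H2-M3 (36.1 FPKM) both stood above H2-Q6 (23.9 FPKM). Which neighbours in these orders differ beyond the spread between samples could not be told from 1 value per group.

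**Figure D2:**
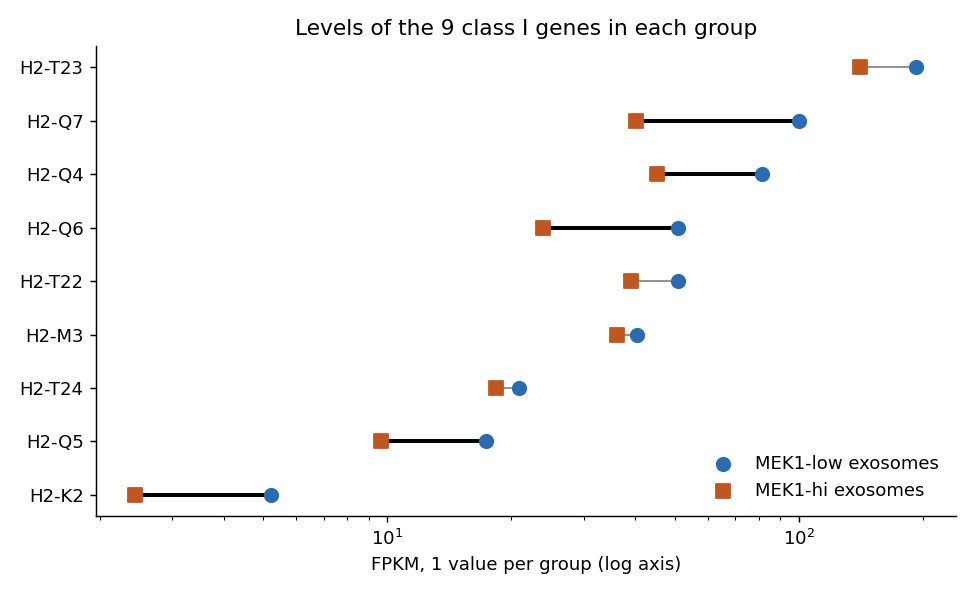
FPKM of each gene on a log axis, 1 authors' value per group, with circles for MEK1-low and squares for MEK1-hi exosomes; thick black lines join genes with a deposited q under 0.05. Every square lies left of its circle, and the 5 thick lines are those of H2-Q4, H2-Q5, H2-Q6, H2-Q7 and H2-K2.

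All 9 values were lower with MEK1-hi exosomes, and 5 of the 9 genes fell in the authors' deposited table at a q under 0.05. Over all tested loci, 1.69% were called lower and 0.751% higher at that threshold, and 49.8% had a lower value. No member rose, and 6 were lower and 0 higher at an unadjusted p under 0.05, where the shares of all tested loci were 5.12% and 3.53%. The median log2 fold change of the 9 was -0.78 computed as log2(FPKM + 1), where changes of low genes come out too small, against 0.00 over the 11804 loci tested at 1 FPKM or more. All 9 passed that minimum in both groups. In such bulk RNA, fewer cells of a type and less RNA per cell cannot be told apart.

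H2-Q7 showed the largest fall of the 9, from 100.0 to 40.2 FPKM. This is 2.49-fold, a log2 fold change of -1.31 (the authors' deposited table: test statistic -5.37, p = 5e-05, q = 0.00349), and it placed H2-Q7 43rd by fold among the 214 loci called lower. On the log2(FPKM + 1) scale its change was -1.29, and only 0.415% of the loci at 1 FPKM or more had a lower one. H2-Q6, its closest neighbour, fell from 50.9 to 23.9 FPKM, 2.13-fold, with a log2 fold change of -1.09 (the authors' deposited table: q = 0.00349).

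H2-Q4 and H2-Q5 fell by nearly the same factor. H2-Q4 fell from 81.2 to 45.1 FPKM, 1.80-fold, with a log2 fold change of -0.85 (the authors' deposited table: q = 0.00349). H2-Q5 fell from 17.3 to 9.66 FPKM, 1.79-fold, with a log2 fold change of -0.84 (the authors' deposited table: p = 0.00015, q = 0.00887). The p of 5e-05 given to H2-Q4, H2-Q6, H2-Q7 and H2-K2 was the smallest in the table and was shared by 181 loci, so it does not rank them. Summing the Q genes removes the question of which of them a shared read belongs to. It does not settle reads shared with genes outside the sum. Windows identical to H2-D1 (2208 FPKM in the MEK1-low and 1540 FPKM in the MEK1-hi group) made up 1.56% for H2-Q6 and 1.74% for H2-Q7. H2-K1 (2507 and 1550 FPKM in the same order) shared 10 identical windows with H2-Q5 and 6 with H2-Q7. The part of these shared windows in the sums was not tested. The sum of H2-Q4 to H2-Q7 was 249.5 FPKM in the MEK1-low and 119 FPKM in the MEK1-hi group, 2.10-fold lower, and that of H2-Q6 and H2-Q7 was 151 and 64.1 FPKM, 2.35-fold lower.

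H2-K2, the pseudogene beside H2-K1, fell from 5.22 to 2.44 FPKM, 2.14-fold, with a log2 fold change of -1.10 (the authors' deposited table: q = 0.00349). It was the lowest of the 9 in both groups. On the log2(FPKM + 1) scale its change was -0.85. Only 1.60% of its windows were identical to another gene, all of them in H2-T22. Some of these, 0.552% of its windows, also occurred in H2-D1, which stood at 2208 and 1540 FPKM in the same order.

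The T series did not pass the test. The log2 fold change of H2-T23 was -0.45, with p = 0.0156 and q = 0.294 by the authors' deposited table, and it was the only one of the 3 T genes under an unadjusted p of 0.05. H2-T22 stood at 50.8 FPKM in the MEK1-low and at 39.0 FPKM in the MEK1-hi group, a difference of -0.38 on the log2 scale (the authors' deposited table: p = 0.273, q = 0.999). H2-T24, at 20.9 and 18.3 FPKM in the same order, differed by -0.19 on that scale (the authors' deposited table: p = 0.733, q = 0.999). These 3 values lay closer to 0 than those of the Q genes and H2-K2. Summed with its near copy H2-T10 (4.93 and 3.89 FPKM, the authors' deposited table: q = 0.931), H2-T22 gave 55.7 and 42.9 FPKM, 1.30-fold lower, the same factor as alone. Identical windows with H2-D1 (2208 FPKM in the MEK1-low and 1540 FPKM in the MEK1-hi group) made up 3.35% for H2-T23 and 1.35% for H2-T22. The part of these windows in the T values was not tested.

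H2-M3, the gene for the presenter of formylated peptides, had the smallest difference of the 9. It went from 40.4 FPKM in the MEK1-low to 36.1 FPKM in the MEK1-hi group, a difference of -0.17 on the log2 scale (the authors' deposited table: p = 0.294, q = 0.999). On the log2(FPKM + 1) scale its change was -0.16, and 21.97% of the loci at 1 FPKM or more had a lower one. The Q genes and H2-K2 thus lay between -0.84 and -1.31, and the T genes and H2-M3 between -0.17 and -0.45. Whether these sets differ from each other was not tested, since that needs values per sample. Windows within 2 mismatches of another gene ran from 10.11% (H2-K2) to 46.9% (H2-Q5) among genes called lower. Among those not called they ran from 0% (H2-M3) to 71.2% (H2-T22). Identical windows ran from 1.60% (H2-K2) to 17.2% (H2-Q7) among the former, and from 0% (H2-M3 and H2-T24) to 11.8% (H2-T22) among the latter. The part of read sharing in the values was not tested.

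**Figure D3:**
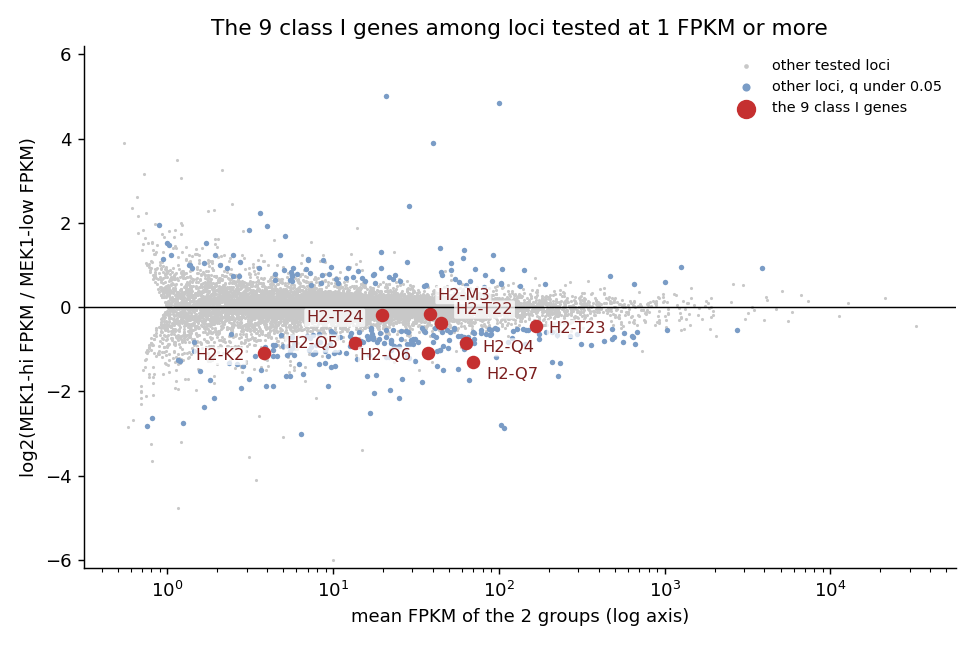
Log2 ratio of MEK1-hi over MEK1-low FPKM against mean FPKM (log axis) for loci tested at 1 FPKM or more; 27 loci listed at 0 in 1 group are not drawn. Red points are the 9 genes, blue points other loci with a q under 0.05 and grey points the rest; all red points lie below 0, with H2-Q7 lowest at -1.31 and H2-M3 highest at -0.17.

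Together the 9 genes summed to 560 FPKM in the MEK1-low and to 355 FPKM in the MEK1-hi group, 1.57-fold lower. The make-up of that sum differed between the groups. H2-T23 was 34.5% of it in the MEK1-low and 39.6% in the MEK1-hi group, while H2-Q7 was 17.9% and 11.3%. H2-M3 was 7.23% and 10.14%. The classical pair H2-K1 and H2-D1 summed to 4715 and 3090 FPKM, 1.53-fold lower, and neither gene was called (the authors' deposited table: q = 0.0681 and 0.105). The 9 genes therefore amounted to 11.9% of the classical sum in the MEK1-low group and 11.5% in the MEK1-hi group.

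Of 35 further symbols of the class I family, the classical pair included, 22 loci were in the table and 5 were tested. At an unadjusted p under 0.05, 3 of these 5 were lower, H2-K1 and H2-D1 among them, and 0 higher. The shares of all tested loci were 5.12% and 3.53%. The median over the 4 at 1 FPKM or more was -0.61 as log2(FPKM + 1). The single one called was H2-M2, an M-series gene (chromosome 17, 37480851 to 37483552), which fell from 14.7 FPKM with MEK1-low to 4.03 FPKM with MEK1-hi exosomes. This 3.64-fold fall (log2 fold change -1.86; the authors' deposited table: q = 0.00349) was larger than that of any of the 9 and ranked 16th among the 214 loci called lower. None of its 100-base windows came within 2 mismatches of another gene. The M series thus held both the largest fall and, in H2-M3, a gene that did not pass. Of the 22 loci, 14 were listed at 0 in both groups, among them H2-Q2, H2-T3, H2-M1, H2-M5, H2-M9 and H2-M11, and H2-Q1 and H2-Q10 stood at or under 0.117 FPKM.

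The promoters of the H2-Q genes are shown because these neighbours moved together. RefSeq promoters (GRCm38.p6, 250 bases before to 50 after the start site) were matched for 6 of the 9 genes: H2-Q4, H2-Q6, H2-Q7, H2-T22, H2-T23 and H2-M3. Both strands were searched for the NF-kB consensus, which is bound by the NF-kB factors, and for GAANNGAAA, a core of the interferon-stimulated response element that interferon regulatory factors bind. The NF-kB consensus was found in 5 of the 6 (all but H2-T23), against 4.51% of 32851 promoters. GAANNGAAA was found in 4 of the 6 (H2-Q4, H2-Q6, H2-Q7 and H2-M3), against 7.52% of promoters. The promoters of H2-Q4, H2-Q6 and H2-Q7 matched each other at 69.1% to 78.8% of aligned positions. Their motif matches are therefore not separate observations. Both motifs were also found in the promoters of the classical H2-K1 and H2-D1, and of H2-M2, which was called lower. H2-K1 and H2-D1 had lower values with MEK1-hi exosomes (log2 fold changes -0.69 and -0.52) but were not called. A longer spacing, GAAANNGAAA, which can overlap the first, was added after the promoters were read and was found in H2-T22 and H2-T23, against 3.44% of promoters. The lines give 80 bases of each promoter that held an NF-kB match, from 10 bases before that match, 5′ to 3′ on the gene's strand. Capitals first mark the NF-kB matches, which overlap each other in H2-Q4 and H2-Q6, and then the interferon element, read here on the opposite strand.
H2-Q4, chr17:35379433-35379512, plus strand: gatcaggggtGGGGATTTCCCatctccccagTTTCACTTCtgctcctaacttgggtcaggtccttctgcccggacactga
H2-Q6, chr17:35424667-35424746, plus strand: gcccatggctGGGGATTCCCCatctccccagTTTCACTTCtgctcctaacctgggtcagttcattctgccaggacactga
H2-Q7, chr17:35439012-35439091, plus strand: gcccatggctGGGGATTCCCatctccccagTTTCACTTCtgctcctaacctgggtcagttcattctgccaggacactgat
H2-T22, chr17:36042886-36042965, minus strand: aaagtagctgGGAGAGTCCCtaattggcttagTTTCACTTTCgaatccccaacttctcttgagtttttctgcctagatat
H2-M3, chr17:37270098-37270177, plus strand: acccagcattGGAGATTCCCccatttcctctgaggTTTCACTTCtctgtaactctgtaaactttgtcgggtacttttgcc

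In H2-Q4, H2-Q6 and H2-Q7 the pair of elements was separated by 10 bases, in H2-T22 by 12 and in H2-M3 by 15. The same letters of the interferon element core stood in the 3 Q genes, which fell, and in H2-M3, which did not pass. Of the other motifs searched, CCAAT was found in 6 of 6 promoters (37.4% of all promoters), TGACG, the core of cyclic AMP response elements, in 4 of 6 (20.8%), and TATAAA in 1 of 6, H2-Q4 (13.6%). A match describes letters in this window, and no binding was measured.

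The class I stretch from H2-K2 to H2-M2 spans 3.51 Mb and held 103 tested loci. Of these, 9 were called lower and 0 higher, 8.74% lower against 1.69% over all tested loci. The called loci include 5 of the genes described here, which were chosen with this contrast in view. The 8.74% therefore partly reflects that choice. Of 5 tested class I loci outside that choice, 1 was called, H2-M2. Class I genes gave 6 of the 9 called loci (H2-K2, H2-Q4, H2-Q5, H2-Q6, H2-Q7 and H2-M2, among 14 tested class I loci). The other 89 loci gave 3, or 3.37%. These were Tnf, the tumour necrosis factor gene (90.6 and 49.8 FPKM), Lst1, a leukocyte transcript (219 and 131 FPKM), and the joined locus of the complement genes C2 and Cfb with Gm20547 (101 and 30.5 FPKM), each with q = 0.00349 in the authors' deposited table. The 89 loci, among them Gm8909, which shares some 100-base windows with H2-D1 and H2-Q7, lay on both sides of 0, with 55 lower and 34 higher. Those of them at 1 FPKM or more had a median of -0.05 on the log2(FPKM + 1) scale.

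**Figure D4:**
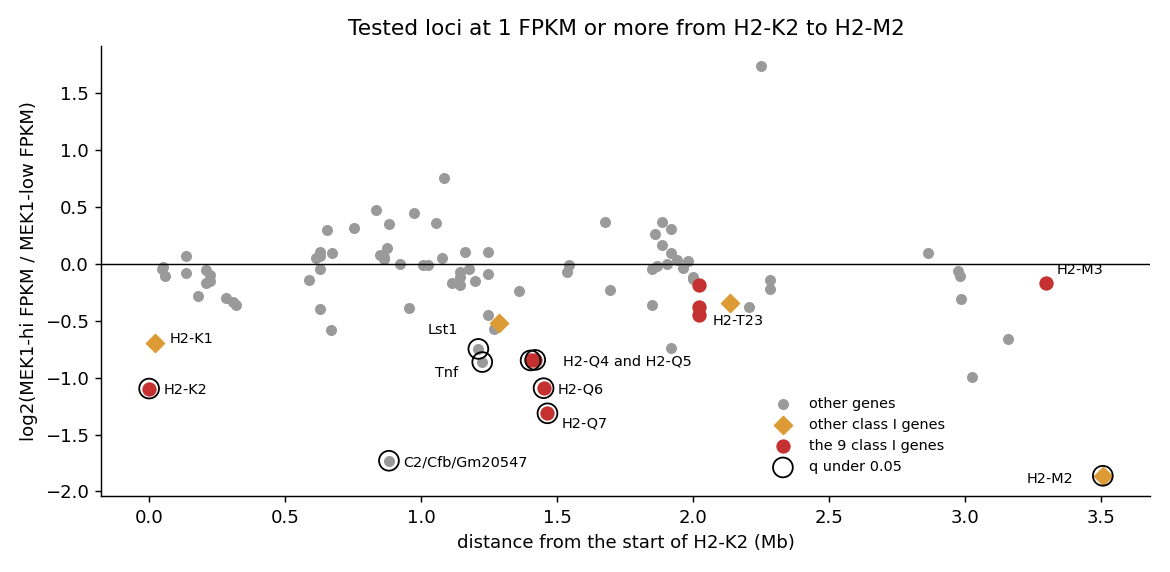
Log2 ratio of MEK1-hi over MEK1-low FPKM against distance from the start of H2-K2 in Mb, for loci of the class I stretch tested at 1 FPKM or more; red points are the 9 genes, orange diamonds other class I genes, grey points other genes, and black rings mark a q under 0.05. The 4 Q genes form a ringed group below -0.8 near 1.4 Mb, the 3 T genes, which share 1 locus span in the table, lie near 2.0 Mb without rings, and H2-M2 is at -1.86 at the right edge.

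Genes that build and load class I molecules were not called. In the authors' deposited table, 0 of 9 assembly and loading genes and 0 of 5 immunoproteasome genes passed, with 1 and 0 lower and 0 and 0 higher at an unadjusted p under 0.05. Without regard to p, 5 assembly and loading genes had lower and 4 higher values. All 5 immunoproteasome genes had lower values, as did 49.8% of all tested loci. B2m, the beta-2 microglobulin gene, stood at 6177 and 4913 FPKM (the authors' deposited table: q = 0.663) and Calr, the chaperone calreticulin, at 762 and 798 FPKM (the authors' deposited table: q = 0.999). Psmb8 and Psme1, of the immunoproteasome and its activator, had levels of 309 and 289 FPKM for the former, and 176 and 164 FPKM for the latter. The medians of these lists were -0.05 and -0.15 on the log2(FPKM + 1) scale. Beside them stood -0.78 for the 9 genes, -0.61 for the other class I loci and 0.00 over all loci.

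Of 12 tested regulators of class I transcription, 0 were called, with 3 lower and 0 higher at an unadjusted p under 0.05, and their median was -0.18. Without regard to p, 11 had a lower and 1 a higher value, where 49.8% of all tested loci had a lower one. Nfkb1, an NF-kB subunit gene, stood at 55.2 and 44.1 FPKM (the authors' deposited table: q = 0.437). Named after its values were seen, Nlrc5, the class I transactivator, stood at 24.1 and 24.2 FPKM, and Irf1, an interferon regulatory factor, at 46.5 and 33.1 FPKM (the authors' deposited table: q = 0.0853).

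Among 11 receptors of class I molecules in the table, 4 loci were tested and 1 was called. Pirb, an inhibitory receptor of myeloid cells that binds class I, fell from 107 to 72.9 FPKM (the authors' deposited table: q = 0.0135). The natural killer cell receptor genes Klrd1 and Klrc1, which encode the partners that read Qa-1, stood at or under 0.104 FPKM and were not tested. Of 7 tested loci with a class I-like fold outside the complex, Procr, the endothelial protein C receptor, fell from 187 to 102 FPKM (the authors' deposited table: q = 0.00349) and 0 rose. Of these 7 loci, 3 had higher values, and at an unadjusted p under 0.05 the count was 2 lower and 1 higher. The latter, named after its value was seen, was Hfe, the hemochromatosis gene, at 11.1 FPKM in the MEK1-low and 15.8 FPKM in the MEK1-hi group (the authors' deposited table: p = 0.0368, q = 0.490).

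**Figure D5:**
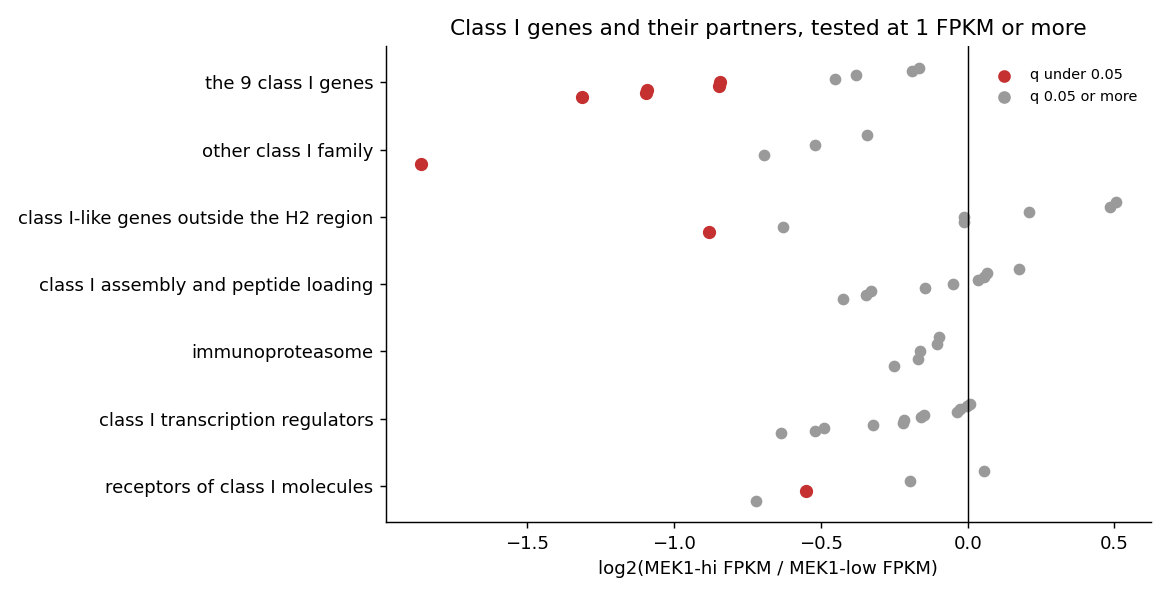
Log2 ratio of MEK1-hi over MEK1-low FPKM for loci tested at 1 FPKM or more in the 9 genes and in 6 lists of related genes; red points have a q under 0.05. Red points appear among the 9 genes, and once each for H2-M2, Procr and Pirb; assembly, immunoproteasome and regulator genes have none.

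The macrophage label fitted its markers, all 12 of which were above 0 in both groups, with Lyz2 at 12303 and 13148 FPKM. Their sum was 21133 and 22347 FPKM, and 1 of the 12, Cd14, was called lower. At an unadjusted p under 0.05, 1 was lower and 1 higher. The latter was Fcgr1, at 107 and 153 FPKM (the authors' deposited table: p = 0.011, q = 0.236). Without regard to p, 4 markers had lower and 8 higher values. Lists of other cell types were far lower. Summed markers of other cells were 6.64 and 5.38 FPKM for 8 fibroblast genes, 7.21 and 5.15 FPKM for 8 T cell genes, 1.97 and 1.61 FPKM for 6 natural killer cell genes, 2.25 and 2.12 FPKM for 5 B cell genes and 4.75 and 4.83 FPKM for 6 dendritic cell genes. They were 73.3 and 53.4 FPKM for 6 neutrophil genes, 1.62 and 1.20 FPKM for 4 endothelial genes and 6.89 and 4.77 FPKM for 4 epithelial genes. Of the tested loci in these lists none was called, and 1 neutrophil and 1 epithelial gene were lower at an unadjusted p under 0.05. Ncr1, Gzma, Cd79a, Pax5, S100a9, Ly6g, Mpo, Elane and Tek were among the markers listed at 0 in both groups. All of these sums of other cells except that of the dendritic cell genes were lower with MEK1-hi exosomes, as the class I genes were. The part of other cells in the class I values was not tested.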

How the data were processed

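The build mm10 and the tools FastQC 0.73, TopHat, Cufflinks and Cuffdiff are named in the submitters' processing notes. Other versions, settings and the handling of reads that map to several places are not given in the sources used here. Per the file headers, the authors deposited Cuffdiff's gene test with 1 FPKM value per group, a test score, a p-value and a q-value. Group columns were matched through the treatment labels (GFP for MEK1-low). The deposited log2 column was not used, as 1555 cells held an error text. Fold changes are ratios of the FPKM values. List medians use log2(FPKM + 1) over loci tested at 1 FPKM or more. A gene was called at a deposited q under 0.05. Of the gene identifiers, 98.1% matched GENCODE M21, build GRCm38 (mm10), by version. Coding sequences were aligned with edlib 1.3.9.post1, and 100-base windows were counted in GENCODE transcripts on the sense strand, leaving out retained-intron forms of the gene itself. Both the adjustment and the window count were checked on simulated data.

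Members and gene lists were chosen with earlier results of these data known. Named were all 9 members, every called gene of a list or of the class I stretch, and otherwise the 2 highest genes of a list. Of 147 list symbols, 128 were found, and the others are not analysed here. Some genes that the rule would name are not reported here. The choice of alternatives covered pseudocount, scaling, thresholds and summing of related genes.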

Additional observations from a re-analysis of the deposited data

How the results depend on the processing

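The count of 5 genes called lower and 0 higher was the same at a deposited q under 0.01 or under 0.10, with p adjusted over loci at 1 FPKM or more, and with an absolute test statistic of at least 2. The class I stretch had 9 called loci, and 10 at a q under 0.10. The median log2 fold change of -0.78 ran from -0.62 without H2-Q7 to -0.84 without a pseudocount, and the log2 ratio of the summed FPKM went from -0.65 to -0.54 without H2-Q7. In 42 recomputed fold changes of single genes, under other pseudocounts, scalings and sums of related genes, the sign stayed the same. Of these only H2-T24 moved by over 1.5 times on the log2 scale, from -0.19 to -0.32 when summed with the more abundant H2-T22 and with H2-T10, of which it is no near copy (coding identity to H2-T22 60.1%). The interferon element core stood in 4 promoters, and its longer spacing, an alternative chosen after seeing the data, in 2. No replicate could be left out, and no paired analysis was possible because the table gives 1 value per group. Depth per sample is unknown, so the precision of each value is too.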
